A study of Mus musculus with 16 samples.

Results

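The cytochrome P450 genes of mouse olfactory mucosa were followed across 2 cell fractions sorted by fluorescence, in mice exposed to an odor or to clean air. A gene was taken as a member when its symbol in the array annotation had the form of a P450 name (Cyp, a family number, a subfamily letter and a gene number), which gave 98 of the 19505 genes measured, each read by 1 array feature. Symbols that go on after this form were kept, so the members include the pseudogenes Cyp2d37-ps, Cyp4b1-ps2 and Cyp4f41-ps. The animals were 24 S100a5-tauGFP mice on a C57BL/6 background, of both sexes and 7 to 12 weeks old, and all groups carried the same reporter, a green fluorescent protein under control of S100a5. S100a5 encodes a calcium-binding protein of the sensory neurons and is transcribed in step with their activity. Each mouse spent 40 h alone in a chamber with clean air flowing at 3.1 L/min, and from 26 h onward received pulses of 10 s every 20 min. The pulses carried whiskey lactone, an odorant that oak barrels give to spirits, in the odor mice and filtered air in the vehicle mice. Dissociated mucosa of 3 mice made up a pool, and 4 odor pools and 4 vehicle pools were sorted into 2 fractions each, so that every group (odor titled GFP+, odor titled GFP-, vehicle titled GFP+, vehicle titled GFP-) had 4 arrays. Replicates are therefore pools of mice, and the precision is limited by their number.

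For each of the 16 arrays the cell type field contradicts the sample title on the sorted fraction, and the fractions are called by their titles throughout. S100a5 itself was lower in the arrays titled GFP+, by 1.34 ± 0.09 on the log2 scale in odor pools (adjusted p = 2.068e-07, limma) and by 1.23 ± 0.09 in vehicle pools (adjusted p = 4.776e-07), in 4 of 4 pools each. The reporter is under control of S100a5, so the lower S100a5 signal in the arrays titled GFP+ is opposite to the titles. A title is thus used as a name only, and titled GFP+ does not mean cells shown to carry the reporter. Which label is right was not tested. The fold changes below follow the titles, and a reader who follows the cell type field would exchange the names of the fractions. Between fractions 27.5% of all genes were called in odor pools and 26.0% in vehicle pools. The median difference over all genes, titled GFP+ minus titled GFP-, was -0.15 in odor and -0.14 in vehicle pools, and differences of that size have no direction independent of the scaling of the arrays.

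P450 enzymes are heme proteins that insert 1 atom of oxygen into their substrate, with electrons passed on from NADPH by cytochrome P450 reductase and, for some reactions, cytochrome b5. Families 1 to 3 mostly oxidize foreign compounds, family 4 oxidizes fatty acids and eicosanoids, and the higher families handle steroids, bile acids, vitamin D and retinoic acid. In olfactory mucosa the sustentacular cells, which support the sensory neurons, and the Bowman's glands, which secrete mucus, are known for a high content of P450 enzymes, among them Cyp2g1, Cyp2a5 and Cyp1a2, and the enzymes convert inhaled chemicals and odorants.

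The promoters of 5 members on which the fraction comparison turns are shown because their transcripts moved together or, in Cyp26b1, the other way. Cyp2g1 moved with them and is left out because no promoter window was matched for it. The windows are the 250 bases before the annotated start, from RefSeq on assembly GRCm38.p6, written 5′ to 3′ on the gene's strand. The windows of Cyp2a5 (chr7:26835089-26835338, plus strand) and Cyp2a4 (chr7:26306942-26307191, plus strand) are set against each other, with capitals at the bases that differ:
Cyp2a5: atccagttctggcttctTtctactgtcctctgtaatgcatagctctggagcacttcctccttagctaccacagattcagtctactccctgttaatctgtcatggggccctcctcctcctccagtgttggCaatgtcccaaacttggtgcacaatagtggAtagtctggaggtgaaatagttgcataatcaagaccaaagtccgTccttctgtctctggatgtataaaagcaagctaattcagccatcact
Cyp2a4: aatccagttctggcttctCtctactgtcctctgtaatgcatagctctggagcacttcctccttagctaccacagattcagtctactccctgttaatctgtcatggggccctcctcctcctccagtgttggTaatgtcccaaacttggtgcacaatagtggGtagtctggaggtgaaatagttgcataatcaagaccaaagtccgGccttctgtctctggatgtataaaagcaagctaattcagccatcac
Over 249 aligned bases 4 differed, so that the windows were 98.4% identical. Cyp2f2 (chr7:27119705-27119954, plus strand), Cyp1a2 (chr9:57683656-57683905, minus strand) and Cyp26b1 (chr6:84593811-84594060, minus strand) follow, with any match to TATAAA, the sequence of the TATA box, in capitals:
Cyp2f2: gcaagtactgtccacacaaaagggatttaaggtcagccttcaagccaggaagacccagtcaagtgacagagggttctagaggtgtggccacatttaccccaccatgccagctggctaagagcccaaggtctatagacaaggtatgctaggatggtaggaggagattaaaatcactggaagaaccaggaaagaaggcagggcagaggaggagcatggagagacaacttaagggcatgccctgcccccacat
Cyp1a2: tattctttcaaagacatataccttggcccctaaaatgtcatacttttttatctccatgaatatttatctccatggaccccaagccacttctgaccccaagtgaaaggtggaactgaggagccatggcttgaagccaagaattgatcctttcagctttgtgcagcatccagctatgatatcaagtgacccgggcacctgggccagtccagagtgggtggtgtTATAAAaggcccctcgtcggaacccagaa
Cyp26b1: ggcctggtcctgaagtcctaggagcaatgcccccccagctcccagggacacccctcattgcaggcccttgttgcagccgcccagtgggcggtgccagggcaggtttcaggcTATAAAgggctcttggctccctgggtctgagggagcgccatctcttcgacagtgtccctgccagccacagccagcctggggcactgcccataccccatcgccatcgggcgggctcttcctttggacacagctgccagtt

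RefSeq windows were matched for 72 of the 98 members, with 1 window per gene. With both strands searched, the TATA box sequence TATAAA stood in 26 of these 72 windows (36.1%), against 12.4% of 32851 promoter windows of the same length over the whole table. The windows of the whole table were not reduced to 1 per gene, so the shares of members and of all windows are not fully alike in kind. A match counted at any place in the window, and its use as a promoter element was not tested. The core of the site of nuclear factor I, TTGGC, stood in 46 windows (63.9%), against 41.5% of all windows. The core of the dioxin response element, GCGTG, stood in 14 (19.4%), against 28.2% of all. Of the windows printed above, those of Cyp2a5, Cyp2a4, Cyp1a2 and Cyp26b1 hold TATAAA and that of Cyp2f2 does not. TTGGC is matched in the window of Cyp2a5, where the match spans 1 of the capitals, and not in that of Cyp2a4. Neighbouring and duplicated P450 genes share promoter sequence, so these shares describe the family and are not counts of independent genes.

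Most of the family gave no signal above background. Taking the median of the 5222 negative control features on each array as background, 19 of the 98 genes (19.4%) were above it on all 16 arrays, 17 on some and 62 (63.3%) on none. Of all genes, 53.3% were above it on all 16 arrays and 29% on none. The stricter limit, the 95th percentile of the negative controls, left 7 P450 genes on all 16 arrays (Cyp2g1, Cyp2a5, Cyp2s1, Cyp2j12, Cyp2f2, Cyp2u1 and Cyp20a1), 5 on some and 86 on none. Cyp2a4 exceeded this stricter limit on 9 arrays, Cyp1a2 on 3, Cyp4f18 on 1 and Cyp26b1 on 0, so their differences below lie partly or wholly within the range of the negative controls. On single arrays 20.4% to 31.6% of the members were above the control median, against 58% to 66.4% of all genes. A gene below the limit may be transcribed in a few cells, and its absence is not shown.

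**Figure D1:**
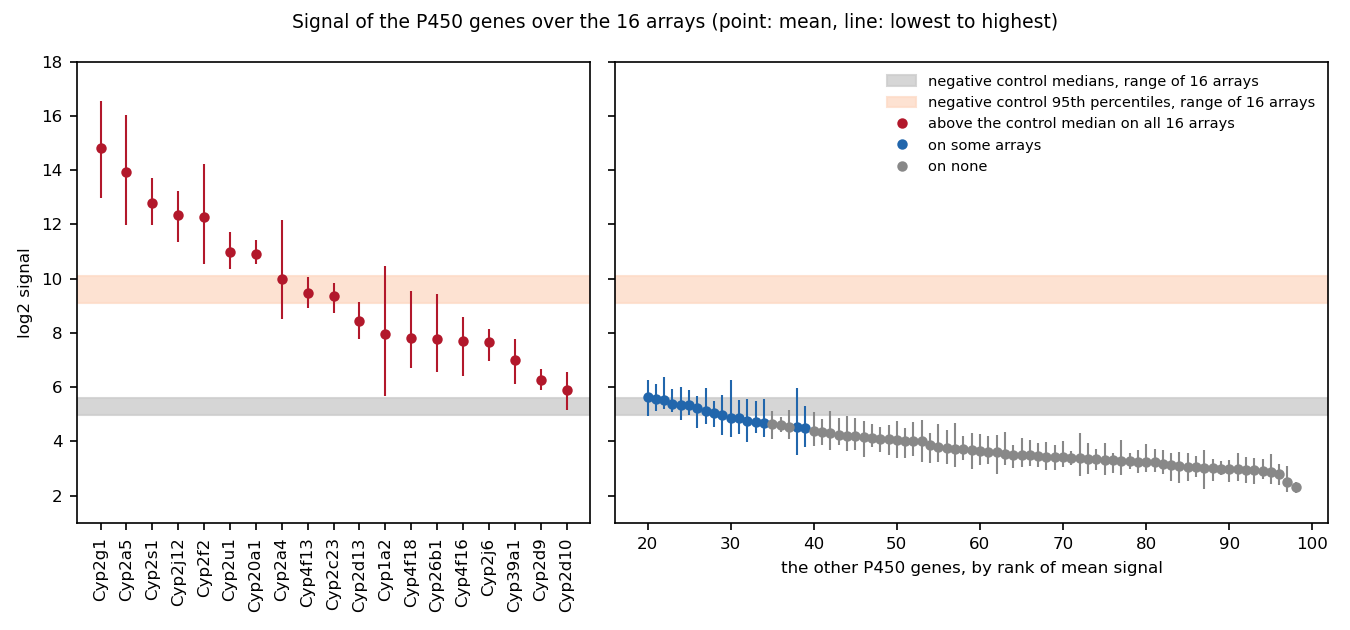
Log2 signal of the 98 P450 genes (points: mean of 16 arrays, lines: lowest to highest array), with the range of the negative control medians and 95th percentiles as bands. The left panel holds the 19 genes above the control median on all 16 arrays, from Cyp2g1 at a mean of 14.80 to Cyp2d10 at 5.88. The right panel holds the other members, all with means in or below the band of the control medians or at its upper edge.

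The class named foreign compound metabolism was set by family number, families 1 to 3, and apart from Cyp2r1 its members were not sorted by substrate. It holds 59 of the 98 members and 13 of the 19 detected on all arrays. Among these are Cyp2u1, Cyp2j12 and Cyp2c23, described below by their action on fatty acids or arachidonic acid, so the class count is not a count of foreign compound enzymes. Cyp2r1, also of families 1 to 3, is counted with the vitamin D genes and not in this class. Of these 59 members, 13 were above the control median on all 16 arrays, 9 on some and 37 on none. Of the 21 family 4 genes 3 were above it on all arrays (Cyp4f13, Cyp4f16 and Cyp4f18) and 14 on none. Of the 6 genes of sterol and bile acid metabolism only Cyp39a1, an oxysterol 7-alpha-hydroxylase, was above it on all arrays, and of the 3 genes of retinoic acid breakdown only Cyp26b1. The 5 genes of steroid hormone synthesis were above it on no array: the brightest of them, Cyp11a1, the side-chain cleavage enzyme, averaged 4.33 over the 16 arrays. Of the 3 vitamin D genes, Cyp24a1, the 24-hydroxylase, was above it on 4 of 16 arrays and the other two on none. Cyp20a1, a member with no settled substrate, was above it on all 16 arrays, at 10.53 to 11.41. Signals of different features are not levels of transcripts that can be ranked against each other, so the order along the axis of the plot of all members is one of array signal only.

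Cyp2g1, one of the P450 enzymes listed above as abundant in olfactory mucosa, was higher in the arrays titled GFP+ in all 8 pools. In odor pools 1 to 4 its log2 signals were 16.36, 15.08, 15.20 and 15.17 in the arrays titled GFP+ and 14.35, 14.09, 13.62 and 12.97 in those titled GFP-. In vehicle pools 1 to 4 they were 16.53, 15.12, 15.87 and 15.39 titled GFP+ and 15.07, 13.85, 14.58 and 13.54 titled GFP-. The 2 fractions did not overlap in either treatment, and pool 1 was the highest in each of the 4 groups. The difference was 1.69 ± 0.16 in odor pools (3.23-fold, adjusted p = 3.127e-06, limma) and 1.47 ± 0.16 in vehicle pools (2.77-fold, adjusted p = 1.278e-05). In sorted bulk samples fewer cells of a type and less RNA per cell cannot be told apart, here or in the comparisons that follow.

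Cyp2a5, a coumarin 7-hydroxylase of liver and nose, showed the same order of fractions. Its signals in odor pools were 15.89, 13.92, 14.41 and 14.67 titled GFP+ and 13.16, 12.95, 11.99 and 12.19 titled GFP-. In vehicle pools they were 16.04, 14.80, 15.43 and 14.90 titled GFP+ and 14.12, 12.88, 12.97 and 12.61 titled GFP-. The fractions did not overlap, and the differences were 2.15 ± 0.22 in odor (4.44-fold, adjusted p = 5.507e-06, limma) and 2.15 ± 0.22 in vehicle pools (4.42-fold, adjusted p = 6.264e-06). Within pools the difference ran from 0.98 to 2.73 in odor and from 1.92 to 2.46 in vehicle. Cyp2a4, a testosterone 15-alpha-hydroxylase of the same gene cluster, moved alongside. It gave 11.72, 10.06, 9.92 and 10.50 titled GFP+ and 9.41, 8.89, 8.71 and 8.50 titled GFP- in odor pools. In vehicle pools Cyp2a4 gave 12.17, 10.43, 11.45 and 10.68 titled GFP+ and 10.19, 8.97, 9.59 and 8.79 titled GFP-. Cyp2a4 was 3.20-fold higher in odor (adjusted p = 1.372e-05) and 3.47-fold in vehicle pools (adjusted p = 7.867e-06). The 2 genes are near-identical copies, and how far their probes read each other's transcripts was not tested, so they may not be separate measurements.

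Cyp1a2, which oxidizes aromatic amines and caffeine, had the largest fraction difference of the members called with both fractions measured. Its signals in odor pools were 10.38, 7.98, 8.54 and 8.66 titled GFP+ and 7.05, 6.67, 6.23 and 5.67 titled GFP-. In vehicle pools they were 10.45, 8.28, 9.43 and 9.16 titled GFP+ and 8.01, 6.24, 7.38 and 6.97 titled GFP-. No array titled GFP- of a treatment reached the lowest array titled GFP+ of it. The difference was 2.48 ± 0.26 in odor (5.59-fold, adjusted p = 8.951e-06, limma) and 2.18 ± 0.26 in vehicle pools (4.53-fold, adjusted p = 3.311e-05). Cyp2f2, an enzyme known for naphthalene oxidation in mouse airways, gave 14.14, 12.68, 12.67 and 12.40 titled GFP+ and 11.96, 11.35, 11.11 and 10.54 titled GFP- in odor pools. In vehicle pools Cyp2f2 gave 14.23, 12.70, 13.66 and 12.77 titled GFP+ and 12.58, 10.75, 11.64 and 11.08 titled GFP-. It had the smallest adjusted p of the family in both treatments, at 3.33-fold in odor (1.73 ± 0.13, adjusted p = 3.562e-07) and 3.55-fold in vehicle pools (1.83 ± 0.13, adjusted p = 2.211e-07).

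**Figure D2:**
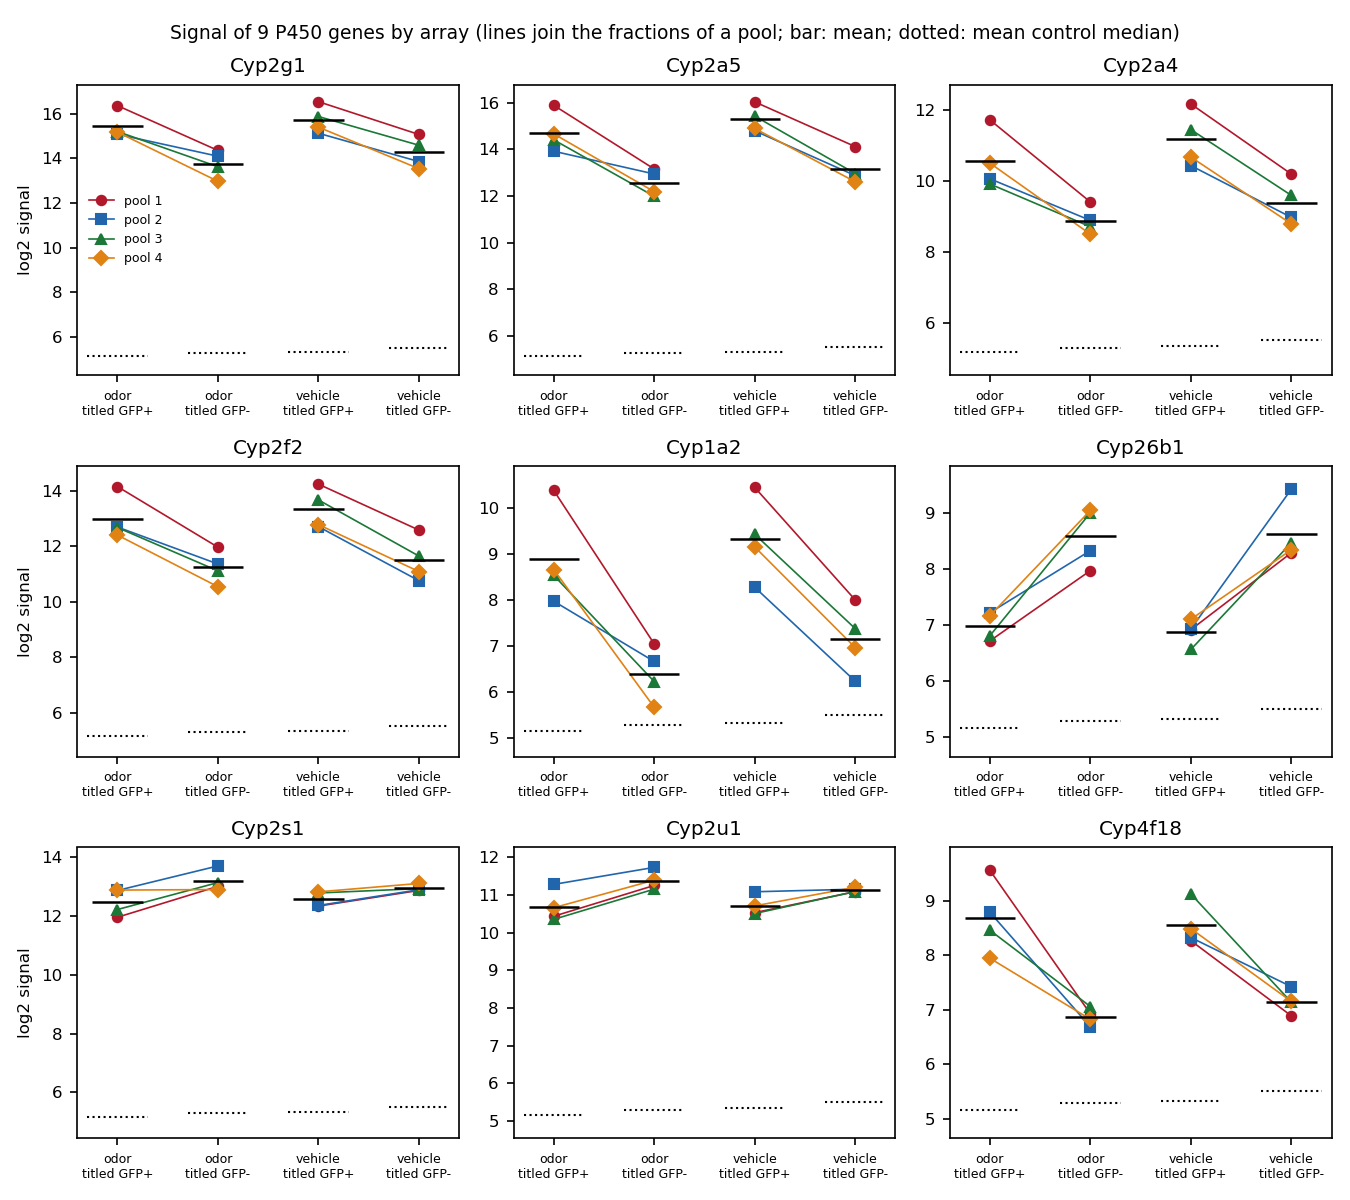
Log2 signal of 9 P450 genes on each of the 16 arrays, in the order odor titled GFP+, odor titled GFP-, vehicle titled GFP+ and vehicle titled GFP-. Lines join the fractions of a pool, bars are the means of 4 pools and dotted lines the mean negative control medians. Cyp2g1, Cyp2a5, Cyp2a4, Cyp2f2, Cyp1a2 and Cyp4f18 lie higher in the arrays titled GFP+ in every pool, and Cyp26b1, Cyp2s1 and Cyp2u1 lie lower in them.

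The higher members of other subfamilies were fewer. Cyp4f18, a leukotriene B4 hydroxylase of mouse neutrophils, gave 9.55, 8.79, 8.46 and 7.94 titled GFP+ and 6.92, 6.69, 7.06 and 6.82 titled GFP- in odor pools. In vehicle pools it gave 8.27, 8.32, 9.12 and 8.49 titled GFP+ and 6.89, 7.42, 7.14 and 7.15 titled GFP-. The fractions did not overlap, and the differences were 3.51-fold in odor (1.81 ± 0.24, adjusted p = 8.298e-05, limma) and 2.64-fold in vehicle pools (1.40 ± 0.24, adjusted p = 8.255e-04). Unlike Cyp2g1 and the Cyp2a genes, Cyp4f18 was not highest in pool 1 in 3 of the 4 groups. The neutrophil marker list, which holds no P450 gene, moved alongside: 12 of its 12 genes were called higher in both treatments, titled GFP+ over titled GFP-, with a log2 summed signal of 18.73 to 20.17 in odor titled GFP+, 10.41 to 12.20 in odor titled GFP-, 19.16 to 19.81 in vehicle titled GFP+ and 10.56 to 12.08 in vehicle titled GFP-. Camp and Mmp9 of that list were at or below background in the arrays titled GFP-. The vehicle call of Cyp4f18 ended under housekeeping centring (adjusted p = 0.05296), and the part of neutrophils in its difference was not tested.

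Cyp2j12, of a subfamily that oxidizes arachidonic acid, was higher by 0.59 ± 0.13 in odor (1.50-fold, adjusted p = 4.598e-03, limma) and by 0.66 ± 0.13 in vehicle pools (1.58-fold, adjusted p = 2.191e-03). These small calls ended without the pool as a block and when arrays were centred on their medians, and the direction turned when arrays were centred on housekeeping genes. Cyp27a1, the sterol 27-hydroxylase of mitochondria, gave 5.73, 4.24, 5.24 and 4.34 titled GFP+ and 3.75, 3.62, 4.17 and 3.81 titled GFP- in odor pools. In vehicle pools it gave 5.97, 5.21, 5.37 and 5.48 titled GFP+ and 4.12, 3.90, 3.50 and 4.05 titled GFP-. Only 2 of 4 arrays titled GFP+ of each treatment were above the control median and none titled GFP-, so the call (adjusted p = 4.452e-03 in odor and 1.690e-04 in vehicle pools) carries a direction and no fold. The odor call of Cyp27a1 ended under housekeeping centring. Cyp39a1 was called in vehicle pools only, at 0.66 ± 0.20 (adjusted p = 0.02654), against 0.27 ± 0.20 in odor pools (adjusted p = 0.3384). Its difference between treatments was -0.39 ± 0.28 (adjusted p = 0.9993), the vehicle call ended without vehicle pool 1, 3 or 4, without the pool as a block and under median centring, and its direction turned under housekeeping centring. Cyp4f16 was likewise called in vehicle pools only (0.95 ± 0.31, adjusted p = 0.04122), was higher in 3 of 4 pools there, differed between treatments by -0.73 ± 0.44 (adjusted p = 0.9993), and lost the call without vehicle pool 1, 3 or 4, without odor pool 3, which shares the estimate of the spread, under median and housekeeping centring and without the variance trend.

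Cyp26b1, which breaks down retinoic acid, was the P450 gene with the largest difference in the other direction. Its signals in odor pools were 6.72, 7.23, 6.82 and 7.17 titled GFP+ and 7.98, 8.34, 9.01 and 9.06 titled GFP-. In vehicle pools they were 6.92, 6.94, 6.57 and 7.11 titled GFP+ and 8.30, 9.44, 8.48 and 8.35 titled GFP-. Every array titled GFP+ lay below every array titled GFP-. The gene was 3.06-fold lower in the arrays titled GFP+ of odor pools (-1.61 ± 0.23, adjusted p = 1.705e-04, limma) and 3.38-fold lower in those of vehicle pools (-1.76 ± 0.23, adjusted p = 8.778e-05). The related genes Cyp26a1 and Cyp26c1 were at or below background on all arrays.

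Cyp2s1 and Cyp2u1 were detected on all arrays with small differences in the same direction. Cyp2s1, an epithelial enzyme induced by dioxin, gave 11.96, 12.87, 12.22 and 12.88 titled GFP+ and 13.01, 13.71, 13.14 and 12.90 titled GFP- in odor pools. In vehicle pools it gave 12.34, 12.36, 12.78 and 12.82 titled GFP+ and 12.87, 12.90, 12.93 and 13.11 titled GFP-. It was lower in the arrays titled GFP+ of odor pools (-0.71 ± 0.14, 1.63-fold, adjusted p = 2.570e-03, limma), where in pool 4 the fractions differed by 0.02, and missed the threshold in vehicle pools (-0.38 ± 0.14, adjusted p = 0.07421). There Cyp2s1 was nevertheless lower in 4 of 4 pools, without overlap of the fractions. The vehicle difference was called lower under median and housekeeping centring and without odor pool 4, which shares the estimate of the spread. Cyp2u1, a fatty acid hydroxylase, was lower in odor (-0.70 ± 0.12, 1.63-fold, adjusted p = 6.105e-04) and in vehicle pools (-0.43 ± 0.12, 1.34-fold, adjusted p = 0.01847). The vehicle call of Cyp2u1 ended without vehicle pool 1, 3 or 4, with no block or a random block for the pool, under cyclic loess and under centring on mature neuron genes. Differences between treatments were -0.33 (95% interval -0.77 to 0.11) for Cyp2s1 and -0.28 (-0.64 to 0.09) for Cyp2u1, with adjusted p = 0.9993 for both.

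**Figure D3:**
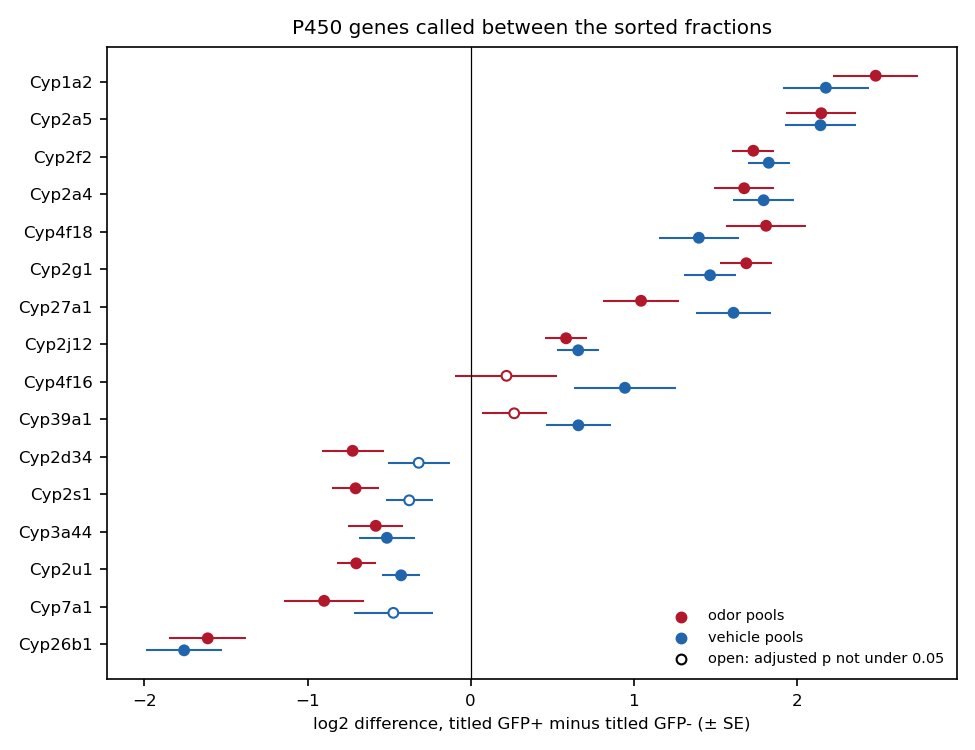
Difference in log2 signal, titled GFP+ minus titled GFP-, with its standard error (limma, 4 pools per treatment) for the 16 P450 genes called in at least 1 treatment and above the control median on at least 1 array. Filled points passed an adjusted p of 0.05. Cyp1a2 and Cyp2a5 stand at the top with differences above 2 in both treatments and Cyp26b1 at the bottom, and Cyp2j12 and Cyp39a1 turn direction under housekeeping centring.

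In all, 17 members were called in odor pools (9 higher and 8 lower, titled GFP+ against titled GFP-) and 20 in vehicle pools (10 higher and 10 lower), out of 98. That is a smaller share than among all genes (27.5% in odor and 26.0% in vehicle pools), and most members were too dim to measure. The vehicle count was 10 (8 higher and 2 lower) without vehicle pool 1 and 9 (8 and 1) without vehicle pool 3. The balance of directions followed the scaling, at 9 higher and 5 lower in odor and 12 and 1 in vehicle pools under cyclic loess, 9 and 3 and then 18 and 1 under mature neuron centring, 7 and 62 and then 7 and 70 under median centring, and 6 and 89 and then 6 and 87 under housekeeping centring. The calls shared by both treatments were 8 higher (Cyp1a2, Cyp27a1, Cyp2a4, Cyp2a5, Cyp2f2, Cyp2g1, Cyp2j12 and Cyp4f18), which is 88.9% of the higher calls in odor and 80% of those in vehicle pools, beside 85.2% and 88.6% for all genes. They were 5 lower (Cyp26b1, Cyp2c70, Cyp2u1, Cyp3a44 and Cyp4a10), or 62.5% of the lower calls in odor and 50% in vehicle pools, beside 59.7% and 64.2% for all genes. The median difference over the 98 members was -0.14 in odor and -0.23 in vehicle pools, beside -0.15 and -0.14 over all genes. Among the 19 genes above the control median on all arrays, 7 were called higher and 3 lower in odor pools, and 9 higher and 2 lower in vehicle pools. The share called among all genes above the control median on all arrays was not computed. These counts therefore do not show whether detected members were called more often than other detected genes.

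Many of the lower calls concern genes at background. In vehicle pools 7 of the 10 (Cyp2c50, Cyp2c70, Cyp2d26, Cyp2e1, Cyp26c1, Cyp3a57 and Cyp4a10) were at or below the control median on every array of both fractions, with differences between -0.43 and -0.67. In odor pools this held for Cyp2c70 and Cyp4a10, and for Cyp4f15 among the higher calls. No fold is given for them. The negative control medians themselves differed between the fractions of a pool, by a mean of -0.12 in odor pools (lower in the arrays titled GFP+ of 4 of 4) and -0.18 in vehicle pools (3 of 4), and their part in these calls was not tested. Near background, Cyp2d34 was lower in odor pools (-0.72 ± 0.19, adjusted p = 0.01271, limma), where 1 of 4 arrays titled GFP+ and 4 of 4 titled GFP- exceeded the control median. Cyp3a44 was lower by 0.58 ± 0.17 in odor (adjusted p = 0.02207) and by 0.51 ± 0.17 in vehicle pools (adjusted p = 0.04143). Cyp7a1, the rate-limiting enzyme of bile acid synthesis in liver, was lower in the arrays titled GFP+ of odor pools (adjusted p = 0.0149, limma). There 0 of 4 arrays titled GFP+ and 2 of 4 titled GFP- were above the control median. Its mean titled GFP- (5.24) was below the mean control median of those arrays (5.29), so the call carries a direction and no fold. The Cyp2d34, Cyp3a44 and Cyp7a1 calls in odor pools each ended without odor pool 2, without odor pool 3 and under mature neuron centring, that of Cyp3a44 also under cyclic loess. The vehicle call of Cyp3a44 ended in 9 of 17 alternatives, among them the omission of any 1 of the 4 vehicle pools.

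Several bright members were not called between fractions with the values as deposited. Cyp20a1 differed by -0.19 ± 0.12 in odor (adjusted p = 0.2784, limma) and -0.31 ± 0.12 in vehicle pools (adjusted p = 0.08745). Cyp4f13 differed by -0.36 ± 0.16 in odor (adjusted p = 0.1029) and -0.40 ± 0.16 in vehicle pools (adjusted p = 0.07715). Cyp2c23, an epoxygenase of arachidonic acid in kidney, differed by 0.18 ± 0.16 in odor (adjusted p = 0.4322) and 0.31 ± 0.16 in vehicle pools (adjusted p = 0.184). The direction of Cyp20a1 turned under centring on mature neuron genes and that of Cyp2c23 under median and housekeeping centring, so neither has a settled sign. Median and housekeeping centring called Cyp20a1 and Cyp4f13 lower in both treatments, and Cyp20a1 was also called lower in vehicle pools without vehicle pool 2.

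Members were spread over the genome in clusters, with 19 genes on chromosome 4, 17 on chromosome 19, 15 on chromosome 7, 12 on chromosome 17, 11 on chromosome 15 and 10 on chromosome 5. The chromosome 7 cluster of 13 measured genes runs in the order Cyp2s1, Cyp2b10, Cyp2b13, Cyp2b9, Cyp2a4, Cyp2b23, Cyp2b19, Cyp2g1, Cyp2a5, Cyp2a22, Cyp2a12, Cyp2f2 and Cyp2t4 on GRCm38.p6. It held 5 of the 19 genes above background on all arrays (Cyp2s1, Cyp2a4, Cyp2g1, Cyp2a5 and Cyp2f2), and 6 of its genes were above background on none. The 4 genes called higher in both treatments, Cyp2a4, Cyp2g1, Cyp2a5 and Cyp2f2, are not all next to each other. Between Cyp2a4 and Cyp2g1 lie Cyp2b23 and Cyp2b19, with differences of -0.40 ± 0.23 and -0.09 ± 0.19 in odor and -0.29 ± 0.23 and -0.16 ± 0.19 in vehicle pools, none of them called. Between Cyp2a5 and Cyp2f2 lie Cyp2a22 and Cyp2a12, both at or below background on all arrays. Cyp2s1 at the edge of the cluster moved the other way in odor pools.

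**Figure D4:**
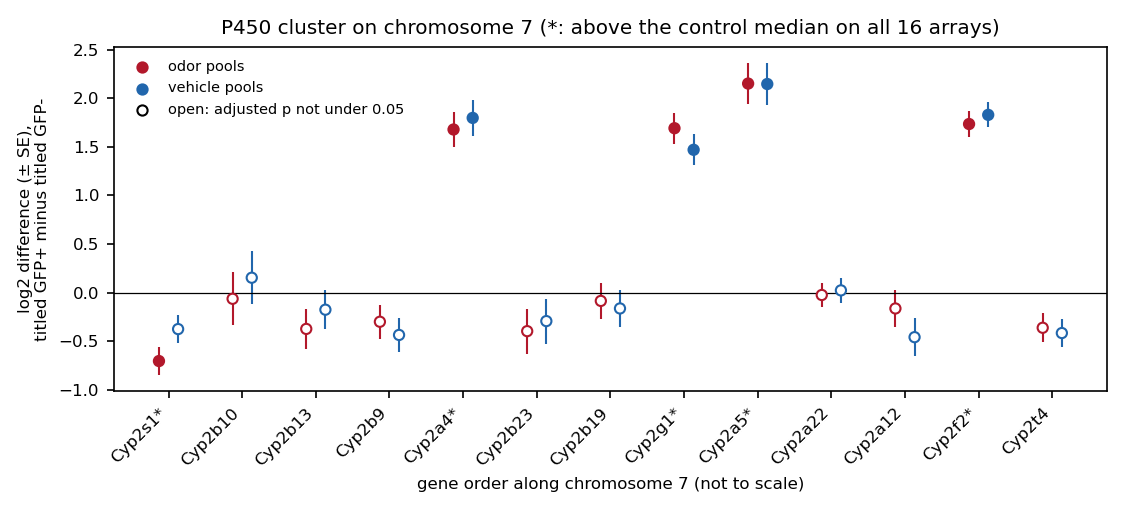
Difference in log2 signal, titled GFP+ minus titled GFP-, with its standard error for the 13 P450 genes of the chromosome 7 cluster in gene order (spacing not to scale), for 4 odor and 4 vehicle pools. Filled points passed an adjusted p of 0.05 and stars mark genes above the control median on all 16 arrays. Cyp2a4, Cyp2g1, Cyp2a5 and Cyp2f2 lie between 1.47 and 2.15, and the genes between them lie near or below 0.

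Genes that serve P450 enzymes were followed in lists of electron supply and of heme synthesis. Of 9 measured genes of electron supply, Cyb5a, which encodes cytochrome b5, was higher in the arrays titled GFP+ by 0.60 ± 0.11 in odor (adjusted p = 0.001374, limma) and 0.41 ± 0.11 in vehicle pools (adjusted p = 0.01705). Cyb5r2, a cytochrome b5 reductase, was lower in vehicle pools (-0.70 ± 0.22, adjusted p = 0.03537), and the other 7 were called in neither treatment. The list's median difference was -0.14 in odor and -0.16 in vehicle pools, close to that of all genes, of which 27.5% were called in odor and 26.0% in vehicle pools. The gene of cytochrome P450 reductase was not analysed here.

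Of 12 measured genes of heme synthesis and turnover, 6 were called higher and 1 lower in odor pools, titled GFP+ against titled GFP-, and 3 higher and 1 lower in vehicle pools, with medians of 0.34 and 0.13, against 27.5% of all genes called in odor and 26.0% in vehicle pools. Alas1, the rate-limiting enzyme of heme synthesis in most tissues, was higher by 0.99 ± 0.13 in odor (1.98-fold, adjusted p = 8.896e-05, limma) and 1.17 ± 0.13 in vehicle pools (2.26-fold, adjusted p = 2.005e-05). Alas2, its red cell counterpart, was 5.66-fold higher in odor (adjusted p = 8.28e-07) and 2.95-fold higher in vehicle pools (adjusted p = 7.348e-05). Blvrb, a biliverdin reductase abundant in red cells, was 4.55-fold higher in odor (adjusted p = 2.114e-04) and 3.37-fold in vehicle pools (adjusted p = 0.001405). Alad, Ppox and Fech, enzymes of the same path, were called higher in odor pools, by 1.06, 0.50 and 0.78, and not in vehicle pools, where the values were 0.43, 0.28 and 0.41, and no heme gene was called in the difference between treatments. Hmox2, a heme oxygenase, was lower by 0.22 in each treatment. Red cell markers moved alongside: 5 of 5 were called higher in odor and 4 of 5 in vehicle pools, with a log2 summed signal of 11.70 to 14.01 in odor titled GFP+, 9.21 to 9.94 in odor titled GFP-, 10.84 to 12.48 in vehicle titled GFP+ and 9.28 to 9.64 in vehicle titled GFP-. Alas2 belongs to both lists, Rhag, Epb42 and Klf1 were at or below background in the arrays titled GFP-, and the part of red cells in the heme genes was not tested.

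Regulators of P450 genes made up a list of 17 genes. Ahr, the dioxin receptor that drives Cyp1a2, was lower in the arrays titled GFP+ of odor pools (-0.57 ± 0.15, adjusted p = 0.01426, limma), and in vehicle pools the value was -0.37 ± 0.15 (adjusted p = 0.09246). Nr1h3, an oxysterol receptor, was lower in odor pools (-0.60 ± 0.20, adjusted p = 0.04104), and Nfe2l2, a factor of the oxidative stress response, in vehicle pools (-0.48 ± 0.16, adjusted p = 0.03708). None was called higher. In all, 2 of 17 were called in odor and 1 of 17 in vehicle pools, a smaller share than the 27.5% and 26.0% of all genes. The median was -0.16 in odor and -0.21 in vehicle pools, beside -0.15 and -0.14 over all genes. Nr1i2, Rxrg, Ppara, Pparg, Hnf4a and Nr1h4 were at or below background on every array, and Nr1i3 on every vehicle array. Of 3 P450 enzymes named otherwise, Tbxas1, thromboxane synthase, was higher titled GFP+ than titled GFP- by at least 1.98-fold in odor pools (adjusted p = 4.442e-05) and at least 1.43-fold in vehicle pools (adjusted p = 8.481e-04), while Cyp51 and Ptgis were not called.

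Markers of several cell types differed between the fractions together with the nasal P450 genes. Over all genes, 12.8% were called higher and 14.7% lower in odor pools, and 12.3% higher and 13.6% lower in vehicle pools, titled GFP+ against titled GFP-. Of 12 measured sustentacular markers outside the P450 family, 7 were higher in the arrays titled GFP+ of odor pools and 8 in those of vehicle pools, none was lower, and the medians were 0.97 and 1.18. Krt18, a keratin of sustentacular cells, was 12.2-fold higher in odor (adjusted p = 1.475e-06, limma) and 12.4-fold in vehicle pools (adjusted p = 1.49e-06), and Sult1c1, a sulfotransferase, 5.72-fold in odor and 7.21-fold in vehicle pools. Their log2 summed signal did not separate the fractions (17.90 to 18.09 in odor titled GFP+, 17.94 to 18.15 in odor titled GFP-, 18.03 to 18.17 in vehicle titled GFP+ and 17.81 to 18.16 in vehicle titled GFP-), since Sult1d1, with a signal near 18 on every array and differences of -0.10 in odor and 0.00 in vehicle pools, made up most of the sum. Hes1 and Notch3 of this list were at or below background on all arrays.

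Of 12 Bowman's gland markers, 6 were higher and 1 lower in odor pools and 5 higher in vehicle pools, with medians of 0.28 and -0.06. Sox9, a transcription factor of the glands, was 23.8-fold higher in odor (adjusted p = 2.569e-08, limma) and 18.5-fold in vehicle pools (adjusted p = 6.134e-08), while Bpifb5, Bpifb6 and Muc5b were at or below background in all 4 groups. The summed signal was 12.79 to 13.69 in odor titled GFP+, 11.17 to 12.77 in odor titled GFP-, 12.15 to 13.21 in vehicle titled GFP+ and 9.95 to 11.68 in vehicle titled GFP-. Microvillar cell markers were higher in 10 of 10 genes in both treatments, and macrophage markers in 11 of 12 in odor and 12 of 12 in vehicle pools. Of 16 markers of mature olfactory sensory neurons, 8 were lower in odor and 9 in vehicle pools and none was higher, with medians of -0.24 and -0.32. Ciliated respiratory cell markers were lower in 3 of 9 genes in odor and 5 of 9 in vehicle pools. Of 8 measured markers of basal and progenitor cells, 4 were higher in each treatment and 1 was lower in odor pools, with medians of 1.19 in odor and 1.10 in vehicle pools. Krt5, Krt14, Trp63 and Neurog1 of that list were at or below background in every group. The part of each cell type in the P450 differences was not tested.

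The second question was whether exposure to whiskey lactone changed the family within a fraction. No P450 gene was called by limma, in the arrays titled GFP+ (0.00513% of all genes called), in those titled GFP- (0% called) or in the difference between treatments of the fraction difference (0.00513% called). At an unadjusted p under 0.05 there were 4, 3 and 3 members in the same order, beside 4.88%, 5.88% and 3.27% of all genes, and the smallest adjusted p of a member was 0.976, 0.7883 and 0.9993. The median over the members was -0.02 in the arrays titled GFP+, -0.05 in those titled GFP- and 0.04 in the difference between treatments, beside 0.01, 0.00 and 0.00 over all genes.

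The nasal P450 genes had lower means in odor than in vehicle pools in both fractions, within wide intervals. In the arrays titled GFP+, Cyp2g1 averaged 15.45 ± 0.61 in odor and 15.73 ± 0.62 in vehicle pools (SD, n = 4 each), a difference of -0.28 (95% interval -1.01 to 0.45). In the arrays titled GFP- it averaged 13.76 ± 0.61 in odor and 14.26 ± 0.69 in vehicle pools, a difference of -0.50 (-1.23 to 0.23). Cyp2a5 differed by -0.57 (-1.36 to 0.22) in the arrays titled GFP+ and by -0.57 (-1.36 to 0.22) in those titled GFP-. Cyp1a2 differed by -0.44 (-1.43 to 0.55) in the arrays titled GFP+ and by -0.74 (-1.74 to 0.25) in those titled GFP-. Odor and vehicle arrays overlapped for each of these genes, and the intervals, which leave the pool numbers out, reach from a more than 2-fold decrease to an increase. Leaving out single pools moved these differences widely. In the arrays titled GFP+ they ran from -0.58 (without odor pool 1) to -0.011 (without vehicle pool 1) for Cyp2g1, from -0.94 to -0.065 without the same pools for Cyp1a2, and from -0.96 (without odor pool 1) to -0.30 (without odor pool 2) for Cyp2a5. In the arrays titled GFP- they ran from -0.74 (without vehicle pool 4) to -0.23 (without vehicle pool 1) for Cyp2g1, from -0.77 (without odor pool 1) to -0.25 (without vehicle pool 1) for Cyp2a5 and from -1.05 (without vehicle pool 2) to -0.46 (without vehicle pool 1) for Cyp1a2.

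Same-numbered odor and vehicle pools deviated together, and with the replicate number as a block the intervals of these genes were narrower. In the arrays titled GFP+ the blocked interval was -0.52 to -0.04 for Cyp2g1, -0.89 to -0.24 for Cyp2a5 and -0.84 to -0.03 for Cyp1a2, and in those titled GFP- it was -0.84 to -0.16, -0.91 to -0.23 and -1.31 to -0.18 in the same order. These intervals lie below 0, but after adjustment over all genes no member was called under the block (0.0103% of all genes called titled GFP+ and 0.0769% titled GFP-), and the smallest adjusted p of a member was 0.6545 titled GFP+ and 0.2593 titled GFP- (limma). At an unadjusted p under 0.05 the block gave 11 members titled GFP+ and 7 titled GFP-, beside 5.42% and 9.75% of all genes. Cyp2g1, Cyp2a5, Cyp2a4, Cyp2f2 and Cyp1a2 were each lower in odor in 4 of 4 same-numbered pairs titled GFP+, with differences from -1.53 to -0.01. The same held titled GFP- for Cyp2a4, and the other four were lower in 3 of 4 pairs. These pair counts were made after the values were seen. Over the family 14 of 98 members titled GFP+ and 8 titled GFP- were lower in odor in all 4 pairs, beside 6.11% and 8.36% of all genes. Of the sustentacular markers outside the family none was called, and their median difference, odor minus vehicle, was -0.10 titled GFP+ and -0.01 titled GFP-.

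In the difference between treatments of the fraction difference, the values were 0.22 (-0.27 to 0.71) for Cyp2g1, 0.00 (-0.66 to 0.66) for Cyp2a5 and 0.31 (-0.50 to 1.11) for Cyp1a2, and that of Cyp2a5 has no settled sign. Leaving out single pools gave 0.053 (without odor pool 4) to 0.46 (without odor pool 2) for Cyp2g1 and 0.023 (without odor pool 1) to 0.70 (without odor pool 2) for Cyp1a2.

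Other detected members were bounded more closely. For 14 of the 19 genes above background on all arrays the 95% interval of odor minus vehicle lay within a 2-fold change either way in the arrays titled GFP+, and for 13 of 19 in those titled GFP-. The members with the smallest p in the arrays titled GFP+ were Cyp4a31 (-0.44, adjusted p = 0.976, limma), at or below background on all arrays, Cyp4b1 (-0.60, adjusted p = 0.9997) and Cyp27a1 (-0.62, adjusted p = 0.9997). In the arrays titled GFP- they were Cyp4f17 (-0.37), Cyp2c38 (-0.46) and Cyp2c39 (-0.34), all at or below background. In the difference between treatments they were Cyp2c39, Cyp4a31 and Cyp4a12a, likewise at background. Among the detected genes the highest value in the arrays titled GFP- was that of Cyp4f16, at 0.67 (-0.02 to 1.36, adjusted p = 0.8475).

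**Figure D5:**
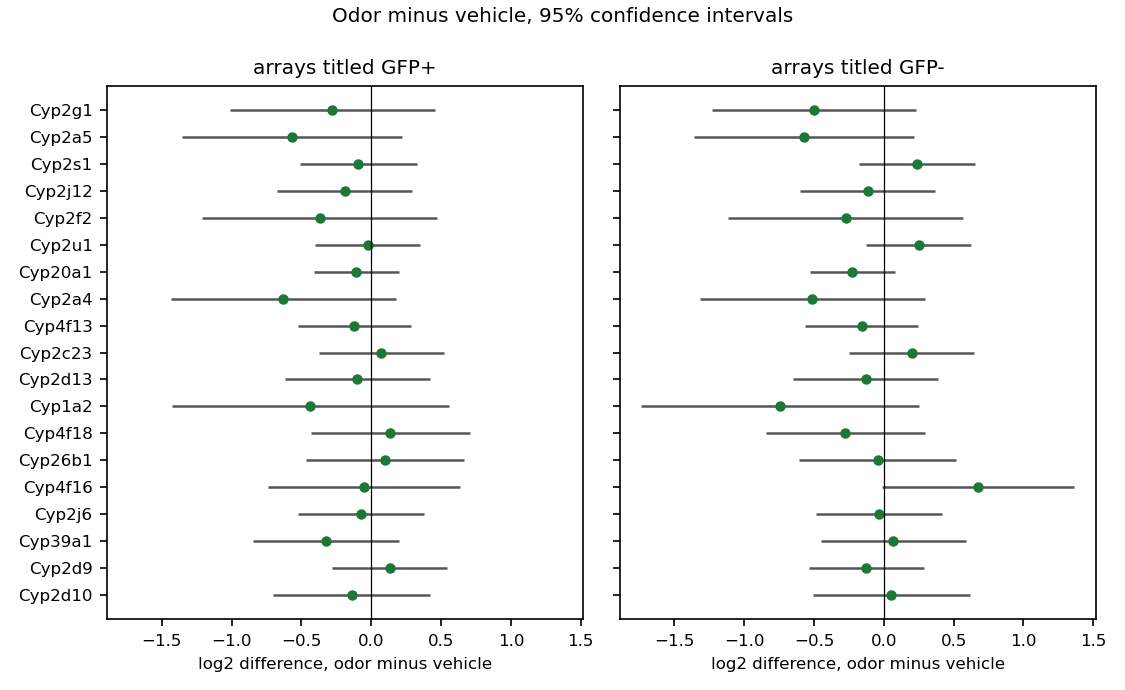
Difference in log2 signal, odor minus vehicle, with 95% confidence intervals (limma, 4 pools per treatment) for the 19 P450 genes above the control median on all 16 arrays, in the arrays titled GFP+ (left) and titled GFP- (right). The intervals leave the pool numbers out, and all cross 0. The widest belong to Cyp1a2, Cyp2f2, Cyp2a4, Cyp2a5 and Cyp2g1, whose intervals reach below -1.

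The spread that widens these intervals was shared among the nasal P450 genes. Cyp2g1, Cyp2a5, Cyp2a4, Cyp2f2 and Cyp1a2 were each highest in pool 1 in all 4 groups. For Cyp1a2 pool 1 exceeded the mean of the other pools by 1.99 in odor titled GFP+, 0.86 in odor titled GFP-, 1.49 in vehicle titled GFP+ and 1.14 in vehicle titled GFP-. Over the whole family the genes highest in pool 1 were 24, 28, 33 and 29 of 98 in the same order of groups, beside 23.1%, 21.8%, 24.4% and 20.7% of all genes. Of the 12 sustentacular markers outside the family, 10, 8, 8 and 9 were highest in pool 1 in that order, and for Krt18 pool 1 exceeded the mean of the others by 1.40, 0.92, 1.24 and 0.94. Cyp26b1 was not highest in pool 1 in any group. The odor pool 1 and the vehicle pool 1 hold different mice and share a number, and whether they were handled together is not given in the labels. The part of sustentacular cell numbers in this spread was not tested.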

How the data were processed

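Biotin-labelled cRNA from 50 to 100 ng of total RNA was hybridized to 16 Affymetrix arrays, per the labels' protocols. The authors deposited 1 table of log2 signals. Per the submitters' processing notes it came from Affymetrix Expression Console, and neither its version nor the normalization and background steps is given in the sources used here. Of 28846 features 19572 carried 1 gene symbol; where a gene had further features (67 in all), the brightest was kept, which left 19505 genes, all matched to a RefSeq gene table of GRCm38.p6 used for names and gene order.

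Models were fitted in R 4.3.3 by limma 3.58.1, with lmFit and with eBayes on trended variances. Tests were two-sided, p-values were adjusted by Benjamini-Hochberg over all 19505 genes, and the threshold was 0.05. Fractions were compared within pools, entered as fixed effects (6 residual degrees of freedom). Odor was compared with vehicle on 4 group means, pools entering as random effects (correlation 0.164, 12 degrees of freedom). The background on each array was the median of 5222 negative controls. A gene at or below it on all arrays of a group has only a bound there, computed against the higher of that background and the gene's own signal. The log2 difference of such a gene is printed as fitted.

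Pairing was judged from deviations from the group means. The correlation between the fractions of a pool was 0.116 to 0.192 (odor) and 0.136 to 0.341 (vehicle). That between same-numbered odor and vehicle pools exceeded 0.1 in 4 of 4 pairs titled GFP- (0.198 to 0.279) and in 3 of 4 pairs titled GFP+ (0.0787 to 0.41). The odor comparisons were fitted without the number, and its block was an alternative. No 2 arrays were duplicates (smallest SD of their log2 differences 0.359 over 120 pairs). The members, gene lists, tests and alternatives were chosen with earlier results of these data known. Genes were named by rule: Cyp2g1, Cyp1a2 and Cyp2a5, the 10 brightest members, the members called between fractions, the 3 smallest p in the other comparisons, the brightest member of each class not yet named, and the most changed genes of each list. Scripts were tested on simulated data. The alternatives were other scalings, blocks and filters, and the omission of each pool.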

Additional observations from a re-analysis of the deposited data

Results flagged for a closer look

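In groups of 4 arrays, the highest or lowest array of a gene stood apart from the others in 11 of 140 groups of named P450 genes, where chance gives about 1 in 20. In odor titled GFP+, pool 1 was high for Cyp2g1 (16.36, next 15.20), Cyp2f2 (14.14, next 12.68) and Cyp11a1 (4.78, next 4.30, at background). In odor titled GFP-, pool 3 was high for Cyp4f16 (8.29, next 7.57) and pool 2 for Cyp4a12a (3.49, next 2.76, at background). In vehicle titled GFP+, pool 3 was low for Cyp2c50 (3.16, next 3.37) and pool 2 for Cyp3a44 (4.75, next 5.11). In vehicle titled GFP-, pool 2 was high for Cyp26b1 (9.44, next 8.48) and low for Cyp2e1 (4.02, next 4.59) and Cyp3a44 (5.25, next 5.64), and pool 3 was high for Cyp2c70 (4.66, next 4.00). Without pool 1 of the odor group, Cyp2g1 and Cyp2f2 were still called higher in the arrays titled GFP+ of odor pools, and without vehicle pool 2 Cyp26b1 was still called lower in those of vehicle pools.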

How the results depend on the processing

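In 17 alternatives to each comparison between fractions, 9 P450 calls held in odor pools under every one (Cyp1a2, Cyp2a4, Cyp2a5, Cyp2f2, Cyp2g1 and Cyp4f18 higher, Cyp26b1, Cyp2s1 and Cyp2u1 lower in the arrays titled GFP+) and 7 in vehicle pools (Cyp1a2, Cyp27a1, Cyp2a4, Cyp2a5, Cyp2f2 and Cyp2g1 higher, Cyp26b1 lower), with Cyp27a1 in 16, since the filter on dim genes left it out. The counts of calls followed the scaling. Median centring called 69 members in odor (7 higher, 62 lower) and 77 in vehicle pools (7 and 70), and housekeeping centring 95 (6 and 89) and 93 (6 and 87). These scalings moved the median of all genes to -0.53 and -0.51 and to -1.14 and -1.06 in the same order, and 6 of 12 housekeeping genes in odor and 5 of 12 in vehicle pools were themselves called higher. Cyclic loess called 14 (9 higher, 5 lower) and 13 (12 and 1), with medians of -0.02 and -0.02, and mature neuron centring 12 (9 and 3) and 19 (18 and 1), with medians of 0.12 and 0.16. Without genes under the 30th percentile of mean signal, 35 members were tested, and 14 and 12 were called. Leaving out each pool gave 13 to 17 calls in odor and 9 to 21 in vehicle pools, with 10 without vehicle pool 1 and 9 without vehicle pool 3. Without the pool as a block, 14 and 17 members were called. Under every alternative 0 members were called in the 3 comparisons with odor, including a replicate block that paired same-numbered pools, with 0 members in either fraction (2 and 15 of all genes). The stricter background left 7 of the 19 genes above it on all arrays.

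The direction between fractions turned under housekeeping centring for Cyp2c23 (-0.81 in odor, -0.60 in vehicle), Cyp2j12 (-0.41 and -0.25), Cyp39a1 in vehicle (-0.25) and Cyp4f15 in odor pools (-0.41). It turned under median centring for Cyp2c23 (-0.20 and -0.0584) and under mature neuron centring for Cyp20a1 (0.0797 and 0.000293). The difference between treatments of the fraction difference of Cyp2a5 turned under median (-0.00722), housekeeping (-0.0760) and mature neuron centring (-0.0338) and ran from -0.19 to 0.40 when single pools were left out. The causes were not tested. The signals of the 62 members at or below background on all arrays limit what these arrays can show of them.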
